A study of Mus musculus with 9 samples.

Results

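The genes described here are 8 genes of cholesterol synthesis and its feedback control, Hmgcs1, Idi1, Fdps, Fdft1, Sqle, Lss, Cyp51 and Insig1. They were taken by gene symbol from a table of 54532 genes measured by RNA sequencing in mouse intestine. The study asks whether lycopene, a carotenoid pigment of tomato, lessens injury of the intestine by radiation, and 3 groups of 3 libraries each were used. Control mice were gavaged with corn oil. IR mice were gavaged with corn oil and received 12 Gy of irradiation to the whole abdomen on day 4. IR+LYC mice received the same irradiation on day 4 and lycopene in corn oil by gavage at 10 mg/kg per day over 10 days. Every group was therefore given corn oil, and a group with lycopene alone was not analysed here. The labels give no strain, age or gut segment. Nothing in them states that each library is from its own animal, and p-values measure only the spread between these samples.

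Cholesterol is built from acetyl-CoA through mevalonate and isoprenoid diphosphates to squalene, which is closed into lanosterol and trimmed to cholesterol. The genes of this route are classical targets of SREBP-2 (gene Srebf2), a transcription factor that is held in the endoplasmic reticulum by INSIG proteins when sterol is plentiful and is released to the nucleus when sterol is scarce. The small intestine takes up cholesterol from food and bile and also makes its own.

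SREBP proteins bind sterol regulatory elements near the starts of many of these genes. Promoter sequences from RefSeq (GRCm38.p6) matched 5 of the 8 genes, and 3 are shown because a short motif of interest was found in them. They are printed 5′ to 3′ on the gene's strand and end before the deposited span of the gene. Capitals mark a match to TCACNNCA, a shortened sterol regulatory element, in Hmgcs1 and Cyp51, and to CACGTG, an E-box, in Insig1.
Hmgcs1, chr13:119690101-119690350, plus strand: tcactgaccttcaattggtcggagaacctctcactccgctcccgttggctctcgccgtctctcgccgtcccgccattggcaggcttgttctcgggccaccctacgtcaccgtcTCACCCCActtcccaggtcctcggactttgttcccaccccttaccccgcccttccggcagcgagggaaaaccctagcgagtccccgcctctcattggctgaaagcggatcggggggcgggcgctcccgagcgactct
Cyp51, chr5:4104747-4104947, minus strand: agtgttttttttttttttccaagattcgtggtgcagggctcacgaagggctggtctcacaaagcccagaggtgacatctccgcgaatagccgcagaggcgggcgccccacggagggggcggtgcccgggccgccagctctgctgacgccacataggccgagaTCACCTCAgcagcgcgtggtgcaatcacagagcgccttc
Insig1, chr5:28071162-28071362, plus strand: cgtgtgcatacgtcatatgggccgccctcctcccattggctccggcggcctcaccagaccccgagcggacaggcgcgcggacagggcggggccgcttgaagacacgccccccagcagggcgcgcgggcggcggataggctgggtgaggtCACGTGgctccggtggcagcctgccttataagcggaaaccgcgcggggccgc
Among 32851 promoters searched on both strands over the 250 bases before the start, TCACNNCA was found in 11.4% and CACGTG in 6.02%. The Hmgcs1 match is also a match to TCACNCCAC, every copy of which holds a TCACNNCA, and which was found in 346 promoters (1.05%). Hmgcs1 further held 3 copies of CCAAT, the box bound by NF-Y, all on the opposite strand. Over the same 250 bases CCAAT was also found 2 times in Idi1 and 1 time each in Cyp51, Insig1 and Lss. It was found in 33.8% of promoters. The windows of Lss and Idi1 held no TCACNNCA and no CACGTG. The motifs to capitalise were chosen after the sequences had been seen, and a match is a run of letters, not a measured binding site.

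Levels are given as FPKM, fragments per kilobase of gene scaled to library depth, as deposited. The length used is that of all annotated exons of the gene, so levels of different genes are compared per that length. Between 17803889 and 22414949 reads per library could be recovered from the values. Of the 8 genes, 7 passed a filter of at least 0.5 FPKM in at least 3 libraries and were tested among 15391 genes. Fdps was the exception. Epithelial markers of the labelled tissue were present, with Epcam at 526 to 923 FPKM and Vil1, a microvillus protein, at 140 to 924 FPKM. The pancreatic amylase gene Amy2a5 was at 0 in every library. It is 1 of 6 pancreatic acinar genes looked at, which together summed to 3.03 to 8.56 FPKM per library. Only 1 of the 6 passed the filter, and its mean log2 level was higher in IR than in control by 0.64, without being called. Fabp6, an ileal bile acid binding protein, ranged from 0.274 to 1561 FPKM, and the segment of each library cannot be told from the labels. Summed over 6 segment genes, Fabp6 among them, IR 2 was at 1584 FPKM and the other libraries were at 42.3 to 436. The part of gut segment in the levels of IR 2 was not tested.

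IR+LYC 2 stood apart from the other IR+LYC libraries. Its mean standardised level (z, over the 9 libraries) of 10 brush border enterocyte genes was 0.88, against -1.83 in IR+LYC 1 and -0.62 in IR+LYC 3, and the controls lay between 0.50 and 0.87. Among the IR libraries, IR 2 was at -1.19 and the other 2 were at 0.30 and 0.46. The summed level of these genes ranged from 19369 to 24430 FPKM among controls, 3415 to 20004 among IR libraries and 1120 to 20925 among IR+LYC libraries. Summed smooth muscle levels were also near the controls in IR+LYC 2, at 406 FPKM against 419 to 548 in controls and 998 to 2125 in the other irradiated libraries. Summed T cell levels put it between the groups, at 196 FPKM against 299 to 496 in controls and 22.9 to 118 in the other irradiated libraries. Other genes set IR+LYC 2 apart from the controls. Syvn1 was at 9.70 FPKM in it, against 12.9 to 13.8 in controls, and Mylip at 4.26, against 9.11 to 11.6. Abca1 was at 6.97 FPKM, against 11.7 to 14.95 in controls. These genes were picked after their values were seen. They are among the genes of their lists with the smallest p in IR+LYC against control, a comparison that IR+LYC 2 itself enters. The label of IR+LYC 2 was not tested, and it stays in doubt with every mean of the IR+LYC group. With all libraries limma called 0 genes of the pathway lists below in any comparison, and calls made without IR+LYC 2 are given beside each list. IR+LYC 2 was singled out after its brush border and smooth muscle values were seen to lie near the controls. Leaving it out tends to widen IR+LYC against control and to narrow the spread of the IR+LYC group. Adjusted p-values of that fit are therefore no evidence of a difference. In these bulk samples, fewer cells of a type and less RNA per cell cannot be told apart.

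Hmgcs1 (ENSMUSG00000093930, chromosome 13, 119690379 to 119708260 on GRCm38, plus strand) encodes the cytosolic HMG-CoA synthase, which acts early in the route to mevalonate. Its levels were 22.7, 25.4 and 27.4 FPKM across the controls, 31.0, 27.5 and 24.0 across the IR libraries and 24.5, 26.0 and 19.6 across the IR+LYC libraries. The group means were 25.2 ± 2.34, 27.5 ± 3.48 and 23.3 ± 3.37 FPKM (SD, n = 3). The highest value was in IR 1 and the lowest in IR+LYC 3, and the 3 groups overlapped.

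Idi1 (ENSMUSG00000058258, chromosome 13, 8885501 to 8892451, plus strand) encodes the isomerase that interconverts the isoprenoid diphosphate units. Its levels were 7.05, 9.60 and 8.66 FPKM (controls 1 to 3), then 12.9, 12.5 and 8.51 (IR 1 to 3), then 12.6, 7.92 and 10.1 (IR+LYC 1 to 3). IR 1 and IR 2 exceeded every control, whereas IR 3 lay within the range of the controls. The processed pseudogenes Gm13502 and Gm35570 match Idi1 over 684 and 681 bases at 100% and 97.7% identity, and they were assigned 1 to 9 and 3 to 62 reads per library, so reads could have been divided between them and Idi1.

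Fdps (ENSMUSG00000059743, chromosome 3, 89093588 to 89101959, minus strand) encodes farnesyl diphosphate synthase, whose product is the branch point to sterols, dolichol and ubiquinone. It was listed at only 0.143 to 0.393 FPKM, from 11 to 35 reads per library, and was not tested. Its control mean was 0.248 ± 0.125 FPKM, its IR mean 0.231 ± 0.0791 and its IR+LYC mean 0.321 ± 0.0327 (SD, n = 3). These levels are uncertain, since how shared reads were assigned is not stated. Fdps shares 1124 exon bases with the overlapping protein-coding gene Gm43738, which was at 0 reads in every library, and processed pseudogenes match it closely. Gm3571, which matches 1062 bases at 98.9% identity, was assigned 58, 87 and 72 reads for control, 141, 188 and 94 for IR and 153, 68 and 108 for IR+LYC. The pseudogene thus carried more reads than Fdps in every library.

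Fdft1 (ENSMUSG00000021273, chromosome 14, 63145150 to 63179578, minus strand) encodes squalene synthase, the first enzyme committed to sterols. Its levels were 6.49, 10.2 and 10.7 FPKM across the controls, 11.6, 12.5 and 8.81 across the IR libraries and 10.9, 8.35 and 9.97 across the IR+LYC libraries. Control 1 was the lowest library and IR 2 the highest, with overlap between all groups. Fdft1 shares 774 exon bases with Ctsb, the cathepsin B gene, which was at 100.4 to 136 FPKM. Because no strand setting of the counting is stated, reads of that stretch are uncertain.

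Sqle (ENSMUSG00000022351, chromosome 15, 59315077 to 59331192, plus strand) encodes squalene epoxidase, a rate-limiting step. Its levels were 6.53, 11.6 and 9.81 FPKM (controls 1 to 3), then 15.8, 12.8 and 10.3 (IR 1 to 3), then 10.9, 7.23 and 9.47 (IR+LYC 1 to 3). The means were 9.30 ± 2.56, 13 ± 2.77 and 9.19 ± 1.84 FPKM (SD, n = 3). IR 1 and IR 2 were above every control, but IR 3 was below control 2, and all IR+LYC libraries lay within the control range. Sqle spanned the widest range of the 7 tested genes, at 2.43 times between its extreme libraries, and no near copy of it was found.

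Lss (ENSMUSG00000033105, chromosome 10, 76531588 to 76557138, plus strand) encodes lanosterol synthase, which closes the sterol rings. It had the lowest level of the tested genes, with 1.88, 2.41 and 2.10 FPKM for control, 2.95, 2.77 and 1.87 for IR and 2.78, 2.12 and 2.502 for IR+LYC. The lowest library was IR 3 and the highest IR 1, so the IR group held both extremes.

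Cyp51 (ENSMUSG00000001467, chromosome 5, 4081145 to 4104746, minus strand) encodes lanosterol demethylase, the cytochrome P450 that starts the trimming of lanosterol. Its levels were 11.1, 14.8 and 16.4 FPKM across the controls, 19.97, 19.2 and 13.5 across the IR libraries and 15.99, 12.6 and 13.6 across the IR+LYC libraries. IR 1 and IR 2 exceeded every control and every IR+LYC library, and IR 3 did not.

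Insig1 (ENSMUSG00000045294, chromosome 5, 28071363 to 28078662, plus strand) is the only one of the 8 that encodes no enzyme. Its protein retains the SREBP escort SCAP in the endoplasmic reticulum, and the gene is itself an SREBP target, so it closes a feedback loop. Its levels were 23.7, 20.9 and 16.6 FPKM (controls 1 to 3), then 17.6, 16.8 and 15.996 (IR 1 to 3), then 15.8, 24.8 and 15.9 (IR+LYC 1 to 3). IR+LYC 2 and control 1 were the highest libraries, and the IR libraries varied little (16.8 ± 0.791 FPKM, SD, n = 3). Insig1 ordered the libraries unlike the enzyme genes, of which control 1 was the lowest in Idi1, Fdft1, Sqle and Cyp51.

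**Figure D1:**
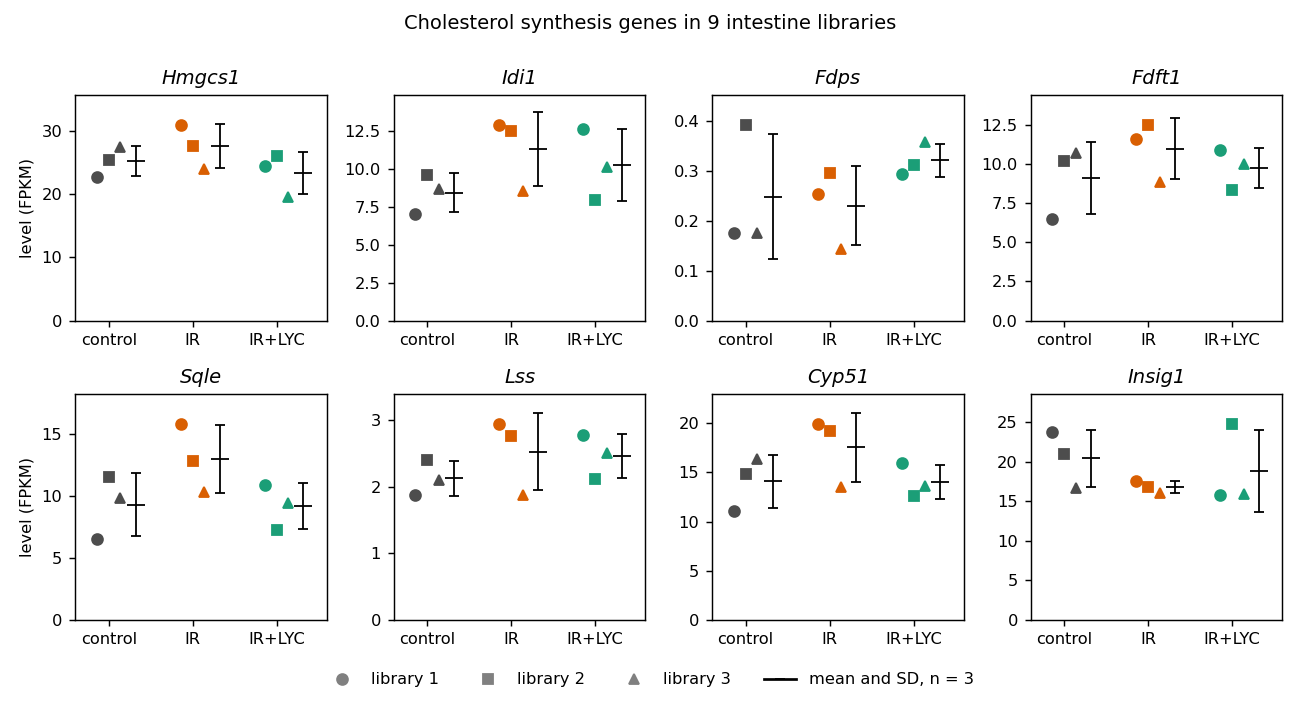
FPKM of each of the 8 genes (one panel each, linear axis) in the 9 libraries; points are libraries, with a marker shape per library number, and bars are the group mean and SD of 3 libraries. IR 1 and IR 2 are the high points in Sqle, Fdft1 and Cyp51, while IR 3 lies among the controls, and Insig1 does not follow this order.

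IR against control addresses the response to irradiation. Of the 7 tested genes, 6 had higher mean log2 levels in IR, beside 48.1% of all genes, and 1, Insig1, had a lower one. The test was passed by 0 of the 7 (limma, Benjamini-Hochberg, threshold 0.05), beside 0.0195% of all genes tested. None of the 7 had groups that did not overlap, beside 28.1% of all genes. The median log2 difference of the 7 was 0.26, and that of all genes was -0.01.

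The widest difference was that of Sqle, at 0.46 on the log2(FPKM + 1) scale (SE 0.23, 95% interval -0.08 to 0.99, limma adjusted p = 0.630). Idi1 differed by 0.37 (SE 0.21, interval -0.10 to 0.85, limma adjusted p = 0.634) and Cyp51 by 0.30 (SE 0.19, interval -0.15 to 0.74, limma adjusted p = 0.654). Smaller differences were those of Fdft1 (0.26), Lss (0.16) and Hmgcs1 (0.12), with limma adjusted p-values of 0.674, 0.693 and 0.761. Insig1 differed by -0.25 (SE 0.20, interval -0.70 to 0.19, limma adjusted p = 0.671). Each of the 7 intervals spanned 0, and 0 of the genes passed at an unadjusted p of 0.05, beside 8.34% of all genes (1284 of 15391). limma-voom on recovered reads called 0 of 16806 genes, and 1348 at the unadjusted threshold. The median of the 7 was 0.11 without control 1, 0.16 without IR 2 and 0.40 without IR 3.

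IR+LYC against IR addresses what lycopene added to irradiation. Mean log2 levels of 6 of the 7 tested genes were lower in IR+LYC and that of Insig1 was higher, beside 48.4% of all genes higher, with 0 called by limma, beside 0.0% of all genes tested. Groups of 0 of the 7 were separate, beside 7.45% of all genes, and the median log2 difference was -0.15. Sqle differed by -0.46 (SE 0.23, interval -0.99 to 0.08), Cyp51 by -0.29 (SE 0.19, interval -0.73 to 0.15) and Hmgcs1 by -0.23 (SE 0.15, interval -0.57 to 0.11), each with a limma adjusted p of 0.994. Fdft1 (-0.15), Idi1 (-0.13) and Lss (-0.02) lay closer to 0, and Insig1 was at 0.13. Without IR+LYC 2 the median was -0.08 and the difference of Insig1 was -0.08. At an unadjusted p of 0.05, limma passed 655 of 15391 genes (4.26%) and 0 of the 7. limma-voom passed 745 there and called 0 after adjustment.

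IR+LYC against control had the median closest to 0 of the 3 comparisons, 0.01, with 5 of the 7 higher beside 49.1% of all genes. Idi1 (0.24), Lss (0.15), Fdft1 (0.11) and Cyp51 (0.01) had higher mean levels, Sqle was level with control at 0.00023, and Hmgcs1 (-0.11) and Insig1 (-0.13) had lower ones. The test called 0 of the 7, beside 0.0195% of all genes, and limma adjusted p-values ran from 0.533 to 0.9997. Groups of 0 of the 7 were separate, beside 17.5% of all genes. At an unadjusted p of 0.05, limma passed 0 of the 7, beside 14.1% of all genes (2176), while limma-voom passed 2356 genes and called 0 after adjustment. Without IR+LYC 2 the median was 0.15 and the difference of Insig1 was -0.33. These comparisons share libraries: the IR group serves the first and the second, the control group the first and the third, and the IR+LYC group the second and the third. Thus the higher Sqle values of IR 1 and IR 2 enter both the first difference, 0.46, and the second, -0.46.

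**Figure D2:**
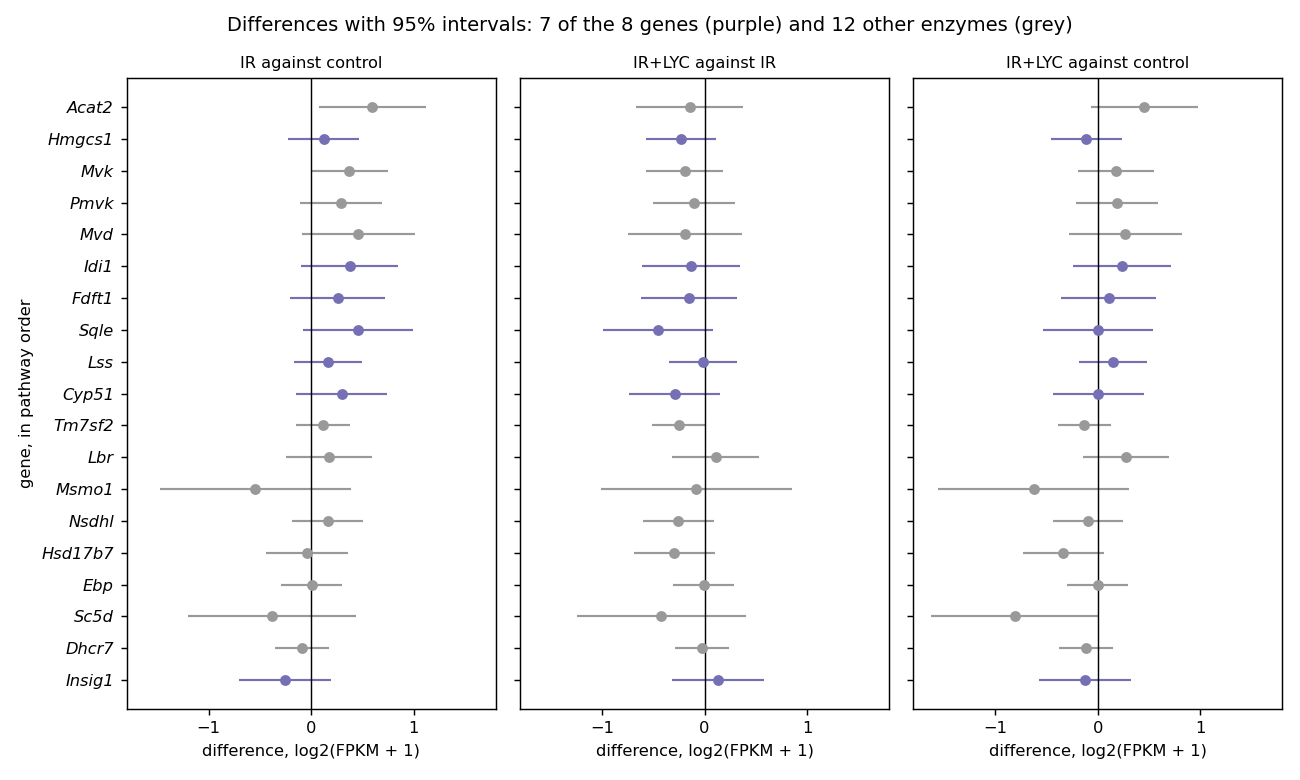
Log2 differences of the 7 tested genes and of 12 further enzymes of the pathway in the 3 comparisons, with 95% intervals, the 7 in purple and the others in grey; the horizontal axis is in log2(FPKM + 1) units and the vertical line marks 0. The intervals of all 7 genes cross 0 in each comparison.

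The other enzymes of the route were also looked at, as a list of 14 genes. In IR against control, 8 had higher and 6 lower mean log2 levels, with a median of 0.06, and 0 were called. Acat2, the thiolase that joins 2 acetyl-CoA, was at 8.22, 9.21 and 9.04 FPKM for the controls and 14.7, 17.5 and 10.2 for IR. Its log2 difference was 0.60 (limma adjusted p = 0.546), with every IR library above every control. Mvk, mevalonate kinase, was likewise separate, with means of 6.26 ± 0.791 (control) and 8.41 ± 1.35 FPKM (IR, SD, n = 3). Msmo1, a methylsterol oxidase, was below the controls in every IR library, with 16.1, 14.01 and 15.4 FPKM for control, 12.8, 8.55 and 9.30 for IR and 6.97, 21.1 and 5.54 for IR+LYC. Mvd, which makes isopentenyl diphosphate, differed by 0.46 (limma adjusted p = 0.630) and Pmvk, the kinase before it, by 0.29 (limma adjusted p = 0.640), both with overlap. Late enzymes whose libraries lay close together were Ebp, at 21.6 to 29.2 FPKM, Dhcr7, at 6.02 to 7.78, Nsdhl, at 7.13 to 10.3, and Tm7sf2, at 2.77 to 3.92. Groups did not overlap in 4 of the 14, 2 higher beside 14.1% and 2 lower beside 14% of all genes.

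Taken along the route, the 8 tested enzymes that lead to squalene had higher mean log2 levels in IR than in control in 7 cases (median 0.33), and the 12 from squalene on did so in 7 cases (median 0.06). In IR+LYC against IR, 0 of 8 and 1 of 12 were higher, with medians of -0.17 and -0.24. The difference between these stages was not tested.

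IR+LYC 2 decided calls among the other enzymes. Without that library, limma called 4120 genes (26.8%, 11.2% higher and 15.5% lower) in IR+LYC against control, 0 of the 7 tested genes, and 7 of the 14 other enzymes. Those lower in IR+LYC included Msmo1 (-1.16, adjusted p = 0.0191), Sc5d (-1.22, 0.0230) and Hsd17b7 (-0.50, 0.0398), where the second value is the limma adjusted p. Acat2 (0.66, 0.0445) and Lbr (0.46, 0.0456) were higher. Over the other alternatives the largest limma adjusted p-values of these 5 ran from 0.715 (Hsd17b7) to 0.819 (Lbr). IR+LYC 2 held more Msmo1 than either other library of its group. Pearson r with the mean z of the brush border genes over the 9 libraries was 0.96 for Sc5d, 0.81 for Msmo1 and 0.63 for Hsd17b7. For Acat2 and Lbr it was -0.85 and -0.94. The part of the brush border cells in these calls was not tested. The smallest limma adjusted p among the 7 without IR+LYC 2 was 0.117, for Insig1.

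**Figure D3:**
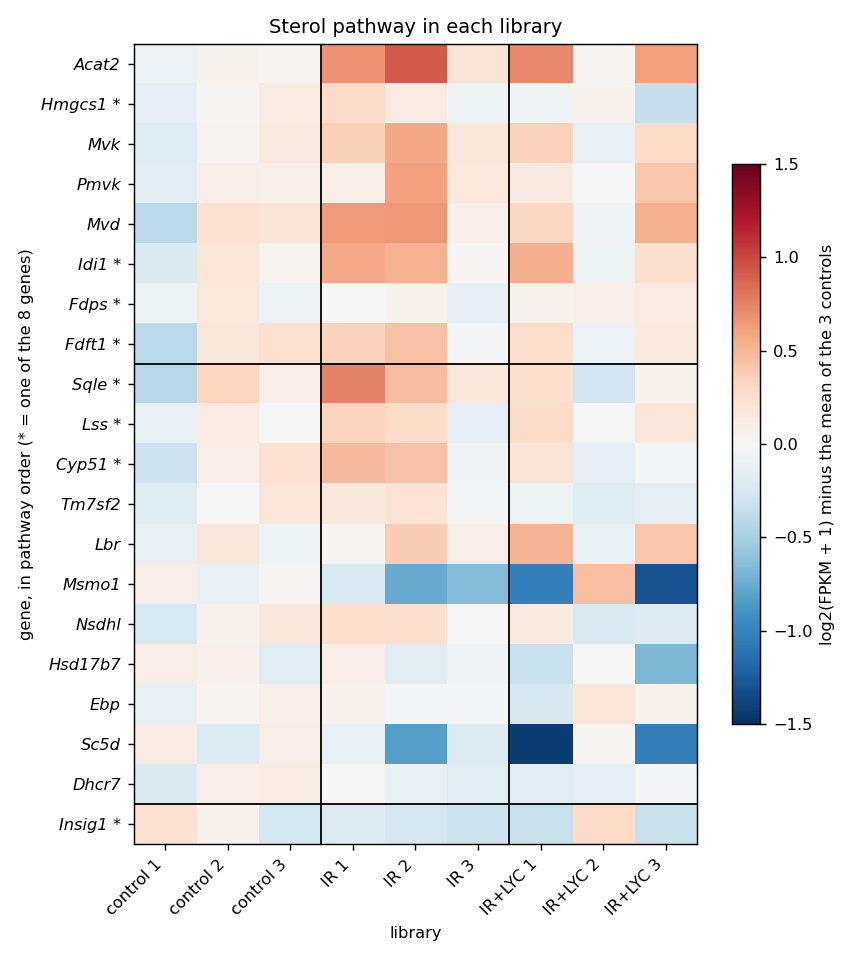
Heat map of the route, 1 row per gene in pathway order and 1 column per library; colour is log2(FPKM + 1) minus the mean of the 3 controls, red above and blue below, and asterisks mark the 8 genes. Acat2 and Mvd are red in IR 1 and IR 2, and Msmo1 and Sc5d are blue in IR+LYC 1 and IR+LYC 3, where Msmo1 is at 6.97 and 5.54 FPKM.

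Among the regulators, Srebf2 stood at 19.7, 26.1 and 27.0 FPKM across the controls, 25.9, 28.01 and 23.4 across the IR libraries and 24.7, 19.4 and 28.01 across the IR+LYC libraries. Srebf1 was at 14.5 to 19.3 FPKM, and Scap, the SREBP escort, at 6.87 to 10.3. The 6 genes of the SREBP machinery had a median log2 difference of 0.06 in IR against control, 4 higher and 2 lower, with 0 called. Of 7 tested genes that influence the turnover of the enzymes, 2 were higher and 5 lower. Syvn1, an endoplasmic reticulum ubiquitin ligase, was at 13.5 ± 0.527 FPKM (control mean), 9.53 ± 0.708 (IR) and 9.05 ± 0.676 (IR+LYC, SD, n = 3). Its libraries of both irradiated groups were all below the controls, with limma adjusted p-values of 0.284 and 0.202. Without IR+LYC 2, limma called Syvn1 lower in IR+LYC than in control (-0.57, adjusted p = 0.0203) and Scap higher (0.43, adjusted p = 0.0234). In either list 0 others were called, beside 26.8% of all genes called in that fit. Insig2 lay at 8.38 to 15.8 FPKM and Mbtps2, the protease that releases SREBP, at 1.72 to 2.24. Rnf139, another ubiquitin ligase of that compartment, lay at 4.998 to 6.22 FPKM.

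Genes of sterol uptake and transport numbered 8, of which 3 had higher and 5 lower mean log2 levels in IR than in control, with 0 called. Npc1l1, the brush border cholesterol importer, stood at 203, 173 and 237 FPKM for control, 142, 38.8 and 144 for IR and 19.2, 149 and 55.3 for IR+LYC. Stard4, a sterol carrier, had means of 58.0 ± 5.03, 50.9 ± 14.1 and 35.8 ± 8.71 FPKM (SD, n = 3). In IR+LYC against control 0 of the 8 were called with all libraries, and without IR+LYC 2 limma called 1 higher and 2 lower, beside 11.2% and 15.5% of all genes. Those lower were Npc1l1 (-2.59, limma adjusted p = 0.0309) and Stard4 (-0.87, limma adjusted p = 0.0423), and over the 9 libraries they followed the mean z of the brush border genes at Pearson r 0.98 and 0.89.

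The 8 genes of sterol export and the LXR receptor programme were lower in 7 cases in IR (median -0.50) and in 8 of 8 in IR+LYC (median -0.80 against control), with 0 called. Abca1, a cholesterol efflux pump, stood at 12.9, 14.95 and 11.7 FPKM across the controls, 10.97, 6.05 and 10.9 across the IR libraries and 4.91, 6.97 and 6.38 across the IR+LYC libraries. Mylip, a ubiquitin ligase induced by LXR, was at 10.0 ± 1.34, 6.74 ± 1.39 and 5.21 ± 0.820 FPKM (SD, n = 3). In IR+LYC against control their log2 differences were -1.01 and -0.83, with limma adjusted p-values of 0.231 and 0.202. Without IR+LYC 2 the median was -1.07 and 5 of the 8 were called lower, beside 15.5% of all genes, Abca1 (limma adjusted p = 0.0276), Mylip (limma adjusted p = 0.0291) and Lpcat3 (limma adjusted p = 0.0373) among them. Over the 9 libraries 4 of the 8 followed the mean z of the brush border genes at Pearson r 0.97 to 0.99, Lpcat3 being one, while Abca1 did so at 0.79 and Mylip at 0.47. The part of the brush border cells in these values was not tested. Of the 4 ester storage genes, 2 were higher and 2 lower in IR. Soat2, the enterocyte enzyme that esterifies cholesterol for chylomicrons, was at 101 ± 13.5, 61.1 ± 30.4 and 58.7 ± 54.5 FPKM, Soat1 at 2.48 to 4.70 and Nceh1 at 3.12 to 5.76. With IR+LYC 2 left out, limma called Soat2 lower (-2.01, adjusted p = 0.0414) and Soat1 higher (0.47, adjusted p = 0.0430) in IR+LYC than in control. In that fit 15.5% of all genes were called lower and 11.2% higher. Pearson r of Soat2 and Soat1 with the brush border mean z was 0.99 and -0.95. Lpcat3, a phospholipid-remodelling LXR target, ran from 31.5 to 94.0 FPKM.

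Fatty acid synthesis genes, in part SREBP-1 targets, numbered 10, and 10 had higher mean log2 levels in IR than in control (median 0.54), with 0 called and 6 separate upward, beside 14.1% of all genes. Me1, which supplies NADPH, stood at 9.31, 6.88 and 5.77 FPKM (controls 1 to 3), then 18.5, 28.2 and 16.03 (IR 1 to 3), then 16.6, 10.0 and 16.6 (IR+LYC 1 to 3). Its log2 difference in IR was 1.38 (SE 0.27, limma adjusted p = 0.254). Fasn, fatty acid synthase, was at 13.99 ± 3.27, 28.2 ± 10.7 and 25.6 ± 6.83 FPKM, and Fads1, a desaturase, at 9.72 ± 0.571, 11.9 ± 1.21 and 15.4 ± 3.05 (SD, n = 3). Without IR+LYC 2, 6 of the 10 were called higher in IR+LYC than in control, beside 11.2% of all genes, and 0 with all libraries. Over the 9 libraries Pearson r of these 6 with the brush border mean z ran from -0.92 to -0.67. The part of cell composition in these calls was not tested. Of the 9 genes of the isoprenoid branch, 5 were higher and 4 lower in IR (median 0.03), and Coq2, of ubiquinone synthesis, was at 16.7 ± 0.776, 19.2 ± 1.73 and 23.4 ± 1.17 FPKM. With IR+LYC 2 left out, 2 of the 9 were called higher in IR+LYC than in control, beside 11.2% of all genes. They were Coq2 (limma adjusted p = 0.0244) and Pdss1 (limma adjusted p = 0.0422). In the same fit 1 of the 9 was called lower, beside 15.5% of all genes. It was Nus1 (limma adjusted p = 0.0234), a subunit of the dolichol-forming transferase. Pdss1, of the ubiquinone route, ran from 7.12 to 11.5 FPKM and Fntb, a farnesyltransferase subunit, from 4.47 to 5.34.

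Cell type markers also lay at other levels. In IR against control, 10 of 10 brush border genes were lower (median -1.30), 6 of 6 smooth muscle genes were higher (median 1.10) and 7 of 8 crypt genes were higher (median 0.25), with 0 called in each list. Likewise uncalled, 6 of 6 T cell genes (median -1.61) and 6 of 6 B and plasma cell genes (median -1.96) were lower, and 5 of 6 macrophage genes were higher (median 0.66). Of 5 tested adipocyte genes, 4 were higher and 1 lower in IR (median 0.50), with 0 called. In IR+LYC against control 4 were also higher and 1 lower (median 0.83), with 0 called. Summed crypt levels were 370 to 418 FPKM (control), 435 to 475 (IR) and 391 to 743 (IR+LYC), and summed smooth muscle levels were 419 to 548, 998 to 1325 and 406 to 2125. The mean z of the 8 genes was -1.04, 0.35 and -0.18 for the controls, 0.98, 0.76 and -0.70 for IR and 0.32, -0.26 and -0.24 for IR+LYC. In the same order of libraries, the brush border mean z was 0.87, 0.50 and 0.63, then 0.30, -1.19 and 0.46, then -1.83, 0.88 and -0.62. Gene by gene, Pearson r with the brush border mean z over the 9 libraries differed in sign. It was -0.76 for Idi1, -0.69 for Lss, -0.59 for Fdft1, -0.45 for Cyp51, -0.40 for Sqle and -0.36 for Fdps. For Hmgcs1 it was 0.14 and for Insig1 0.63. The part of cell composition in these levels was not tested. Summed over the 8 genes, the level was 88.9 ± 8.21 FPKM (control), 99.9 ± 15.01 (IR) and 88.2 ± 6.22 (IR+LYC, SD, n = 3).

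**Figure D4:**
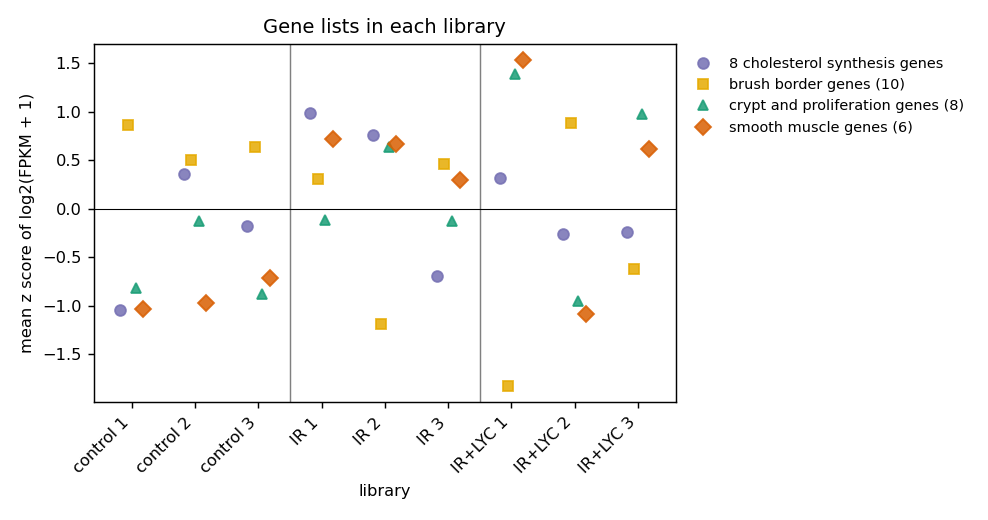
Mean z of the 8 genes and of lists of brush border, crypt and smooth muscle genes in each of the 9 libraries; markers are offset sideways so that they do not hide one another. Brush border genes are low in IR 2 and IR+LYC 1, and the 8 genes are high in IR 1 and IR 2.

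The 6 genes outside the lists whose levels were most like the mean z of the 8 genes over the 9 libraries were Gpx2 (Pearson r 0.91), Gm4204 (0.91), Anapc1 (0.90), Tbc1d2 (0.88), Rpn1 (0.88) and Mospd2 (0.87). These values describe likeness over 9 libraries that share groups, and 8 of 8 genes entered the mean. Gpx2, the gastrointestinal glutathione peroxidase, stood at 97.2, 176 and 166 FPKM for control, 218, 219 and 152 for IR and 162, 149 and 149 for IR+LYC. IR 1 and IR 2 were its highest libraries and control 1 its lowest. Rpn1, a subunit of the oligosaccharyltransferase of the endoplasmic reticulum, ran from 49.0 to 65.0 FPKM.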

How the data were processed

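fastp and HISAT2 2.0.5 are named in the submitters' processing notes; the counter, build and strand setting are not given in the sources used here. The authors deposited FPKM per gene. Positions of all 8 genes equal those of GENCODE M21 (GRCm38). Reads were recovered from FPKM and gene length as whole numbers, within 0.01 read, in 202261 of 202261 values, and the authors' scaling divisor came to 0.854 to 1.26 times each library's total. Levels were tested as log2(FPKM + 1), which understates differences of low genes, with limma 3.58.1 in R 4.3.3 as 3 contrasts of 1 model with a mean-variance trend (6 residual, 8.18 total degrees of freedom), with Benjamini-Hochberg adjustment over 15391 genes. Near copies were sought with blastn 2.17.0 (at least 95% identity over at least 200 bases). Named are the 8 genes, the other enzymes, Srebf1, Srebf2, Insig2, Stard4 and Npc1l1, the 3 of each further list with the smallest p, and the 6 genes most like the mean z; some genes of the lists enter the counts but are not reported here by name, and marker genes and those said to be separate were named after their values were seen. The genes, lists and tests were chosen with earlier results of these data known. Alternatives numbered 18. Figures were drawn with matplotlib 3.10.9.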

Additional observations from a re-analysis of the deposited data

How the results depend on the processing

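Under 18 alternatives 0 of the 7 tested genes was called in any comparison. The number of genes called in IR against control, 3, was 100 in a fit of the 2 groups only, 7 with no filter, 1 with a pseudocount of 0.1 or a mean of at least 5 FPKM, 0 with limma-voom and 0 with the replicate block, and it ran from 0 to 98 (without IR+LYC 2) with 1 library left out. In IR+LYC against control, 3 became 6 with no filter, 1 in the 2-group fit or with a mean of at least 5 FPKM, 0 with a pseudocount of 0.1, limma-voom, the replicate block or epithelial rescaling, and 0 to 4120 (without IR+LYC 2) with 1 library left out. The other enzymes called there were 0 to 7. IR+LYC against IR stayed at 0 in all of them.

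Signs turned only for small differences, and the cause was not tested. Epithelial rescaling, which shifted the median of all genes by 0.18 in IR+LYC against IR and by 0.21 against control, gave Idi1 0.045, Fdft1 0.028 and Lss 0.16 against IR, and Hmgcs1 0.094 and Insig1 0.077 against control. limma-voom gave Cyp51 -0.0018 and Sqle -0.0073 against control. With 1 library left out, IR+LYC against IR ran from -0.078 to 0.23 for Insig1, -0.31 to 0.021 for Idi1 and -0.16 to 0.071 for Lss. Against control it ran from -0.15 to 0.12 for Cyp51, -0.21 to 0.16 for Sqle, -0.19 to 0.0059 for Hmgcs1 and -0.10 to 0.22 for Fdft1. In IR against control no sign turned, and the median of the 7 ran from 0.11 to 0.40.

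Whether the numbers in the titles pair the libraries cannot be told. In IR against control, deviations of same-numbered libraries correlated at 0.15, 0.38 and -0.04, and those of different-numbered libraries from -0.33 to 0.32. With IR+LYC most correlations of same-numbered libraries were below 0. Deviations from a mean of 3 libraries depend on one another, so these values cannot exclude pairing. Lss was left out by the filter on a mean of 5 FPKM. With 3 libraries a group, differences of the size of the intervals given were not detectable.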
